A study of Mus musculus with 11 samples.

Results

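The 9 genes described here encode the enzymes that write and remove DNA methylation and the catalytic subunits that methylate histone H3 at lysine 27: the maintenance pair Dnmt1 and Uhrf1, the de novo methyltransferases Dnmt3a and Dnmt3b, the demethylating dioxygenases Tet1, Tet2 and Tet3, and the Polycomb methyltransferases Ezh1 and Ezh2. They were chosen by name and matched to gene identifiers through the GENCODE mouse annotation, and all 9 were found among the 53801 genes listed for each library. RNA was sequenced from 11 cultures of primary neural stem cells (NSCs) of mouse hippocampus, which had received 4HBP at 1 µM or its vehicle, EtOH, over 7 days. Proliferation medium holds the growth factors EGF and bFGF, each at 20 ng/ml, and B27, and gave 3 libraries of 4HBP-treated and 3 of vehicle-treated cells. Differentiation medium holds B27 and no added growth factor, and gave 3 libraries of treated and 2 of vehicle-treated cells. The sample labels write out 4HBP as 4-hydroxybenzoic acid and the study as 4-hydroxybenzophenone. The labels name no transgene or deletion in any group and do not tie a library to an animal, so the p-values measure the spread between libraries, which may be in part technical.

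DNA methylation in mammals is copied at each round of replication, when UHRF1 binds hemimethylated CpG sites and brings in DNMT1. DNMT3A and DNMT3B set new methylation, and the TET enzymes oxidise methylcytosine, which starts its removal. EZH2 and EZH1 are alternative catalytic subunits of Polycomb repressive complex 2 (PRC2), EZH2 being the form typical of dividing cells and EZH1 that of resting and differentiated cells. In the developing brain DNMT3A is known to act in postnatal NSCs and neurons, and EZH2 keeps neural progenitors from leaving the progenitor state too early.

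Library totals ranged from 20822921 to 23438463 expected counts, and the 9 genes took 0.0524% to 0.0695% of them. The smallest amount taken as detectable, 3 counts, was worth 0.128 to 0.144 CPM, counts scaled to a common library size. Mitochondrial genes took 8.49% to 9.60% of the counts in proliferation medium and 5.76% to 6.24% in differentiation medium. NSC markers were detected in every group, 8 of 8, and their summed level fell from 4432 to 5391 CPM in proliferation medium to 1726 to 1755 CPM in differentiation medium. Astrocyte markers, 8 of 8 detected, summed to 3734 to 6693 CPM and to 7760 to 8018 CPM, and oligodendrocyte lineage markers, also 8 of 8, to 2125 to 4002 CPM and to 7567 to 7902 CPM. In vehicle-treated cells 6 astrocyte markers were called higher and 2, Gfap and Aldh1l1, lower in differentiation medium, and of the NSC markers 6 were lower and 2, Prom1 and Msi1, higher. Neuron markers, 8 of 8 detected, summed to 933 to 1068 CPM over all 11 libraries, a sum in which Map2 alone took 633 to 886 CPM; in vehicle-treated cells 5 of the 8 were called higher in differentiation medium (median log2 fold change 0.64) and Map2 lower. Microglial markers summed to at most 3.90 CPM, endothelial markers to at most 21.4 CPM with Cldn5 and Cdh5 at 0 in every library, and mesenchymal or meningeal markers to 3.07 to 6.37 CPM in proliferation medium and 29.4 to 32.7 CPM in differentiation medium. Of this last sum in differentiation medium Pdgfrb alone took 26.5 to 29.4 CPM. A difference in these bulk samples can come from fewer cells of a type or from less RNA per cell, which cannot be told apart. The third 4HBP library in proliferation medium stood apart from its replicates: the mean chi-square per gene against them was 21.4 and 23.8, against 2.53 to 11.9 for the other 8 pairs of libraries within a group. Values without this library are given beside several of the 4HBP results in proliferation medium.

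Levels were compared between genes as TPM, transcript levels scaled to a common total, which corrects for transcript length. In vehicle-treated cells in proliferation medium Ezh2 was the most abundant of the 9 at 97.1 ± 8.63 TPM (SD, n = 3), followed by Dnmt1 at 67.4 ± 7.09 TPM. Uhrf1 at 28.1 ± 3.33 TPM and Dnmt3a at 26.2 ± 4.16 TPM had overlapping ranges, and Tet3 stood below them at 19.3 ± 0.813 TPM. Tet2 (13.0 ± 1.72 TPM), Ezh1 (9.04 ± 2.63 TPM) and Tet1 (7.37 ± 2.19 TPM) formed a run in which each range overlapped with the next. Dnmt3b was lowest at 0.787 ± 0.055 TPM, from 43 to 49 expected counts per library, against 292 or more for each of the other 8 genes in that group.

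In vehicle-treated cells in differentiation medium the order was different, with Dnmt3a first at 51.0 ± 0.651 TPM (SD, n = 2), Ezh2 then at 39.3 ± 1.27 TPM and Dnmt1 next at 25.6 ± 0.976 TPM. Uhrf1 had moved from the third to the eighth place, at 5.87 ± 0.410 TPM. The ranges of neighbours in the order did not overlap in this group, which holds only 2 libraries. Under 4HBP in the same medium the top 3 genes were the same, and Tet3 (19.6 ± 0.716 TPM) and Tet2 (19.1 ± 1.95 TPM) had overlapping ranges. Under 4HBP in proliferation medium Ezh2 (77.4 ± 8.62 TPM) and Dnmt1 (47.6 ± 16.8 TPM) again led, and Uhrf1 was the fifth at 17.1 ± 6.64 TPM, overlapping with Tet3 above it and Tet2 below it.

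Differentiation medium lowered the maintenance pair and Ezh2 and raised Dnmt3a, Tet1 and Tet2. In vehicle-treated cells 6 of the 9 genes passed the test, edgeR's quasi-likelihood test with a Benjamini-Hochberg adjusted p under 0.05, with 3 higher and 3 lower in differentiation medium. The background is large, since 61.4% of the 15920 genes tested passed in this comparison, 30.8% higher and 30.6% lower, and the groups of 7 of the 9 genes did not overlap, against 76.3% of all genes. The number of genes among the 9 that passed is therefore close to that background. The median log2 fold change of the 9 was -0.01, beside 0.03 over all genes tested. The values described next are CPM normalised by the trimmed mean of M-values (TMM) unless TPM is stated.

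Uhrf1 showed the largest difference among the 9. Its normalised counts were 61.0, 62.4 and 80.0 CPM in the vehicle libraries in proliferation medium and 8.29 and 7.01 CPM in those in differentiation medium. The groups lay far apart, and the log2 fold change was -3.15 ± 0.32 (SE; adjusted p = 2.6e-06), 8.87-fold lower in differentiation medium. Dnmt1 stood at 206, 208 and 247 CPM in proliferation medium and at 68.9 and 76.0 CPM in differentiation medium, a log2 fold change of -1.60 ± 0.21 (adjusted p = 2.11e-05). Ezh2 fell from 81.9, 86.6 and 87.9 CPM to 35.9 and 36.1 CPM, with a log2 fold change of -1.25 ± 0.09 (adjusted p = 1.49e-07). Every library in differentiation medium was thus below every library in proliferation medium for these 3 genes.

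In the promoter windows searched, these 3 genes held a word that the other 6 did not. Promoter windows of RefSeq genes, from 250 bases before to 50 bases after a gene's start (build GRCm38.p6), were searched on both strands for the words TTTCCCGC, TTTCGCGC, TTTGCCGC and TTTGGCGC, the core forms of the site known to bind E2F factors, which drive genes of the replication phase. Among the 9 genes, Dnmt1, Uhrf1 and Ezh2 had such a word in a window, 33.3% of them, against 2.6% of 27025 genes and 8 of 17 genes of a replication reference list with a window. All 4 words hold a CG, and the windows of the 9 genes were richer in CG, with a median of 31 against 8 over all genes, so that the background is not one of like base composition. Of other words searched on both strands, CCAAT was in windows of 44.4% of the 9 and 41.1% of all genes. Among the 9, the genes with CCAAT were the same 3 and Tet3. TTTGAA or TTCGAA, forms of the cell cycle homology region, were in 22.2% and 21.7%. The E2F stretches are shown, with the word in capitals, for the 3 genes that fell together. A link between the words and the fall was not tested. A match is a description of the letters and not of binding. Distances are those of the word from a RefSeq start, and other annotated starts of Dnmt1 and Uhrf1 lie upstream. The coordinates also take in the bases printed around the word.

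Dnmt1, chr9:20952825-20952852, minus strand, starting 219 bases before the gene's start, over exons of other annotated transcripts: gtttccgcgcGCGCGAAAaagccggggt
Dnmt1, chr9:20952574-20952600, minus strand, the word at transcribed base 34, in an untranslated exon part: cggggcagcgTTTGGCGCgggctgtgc
Uhrf1, chr17:56304118-56304145, plus strand, starting 185 bases before the gene's start, in an intron of 2 longer transcripts: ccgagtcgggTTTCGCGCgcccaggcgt
Ezh2, chr6:47595010-47595037, minus strand, the word at transcribed base 4, in an untranslated exon part: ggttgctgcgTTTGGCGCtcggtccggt

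Dnmt3a moved the other way. It stood at 94.4 to 112 CPM in the vehicle libraries in proliferation medium and at 222 and 232 CPM in differentiation medium, a log2 fold change of 1.14 ± 0.07 (adjusted p = 4.33e-08), 2.21-fold. Tet1 rose from 27.03 to 36.2 CPM to 55.3 and 57.3 CPM, with a log2 fold change of 0.80 ± 0.12 (adjusted p = 6.59e-05). Tet2 rose less, from 51.9 to 59.5 CPM to 76.5 and 76.1 CPM, with a log2 fold change of 0.47 ± 0.09 (adjusted p = 0.000475). All libraries in differentiation medium lay above all those in proliferation medium for these 3 genes.

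The other 3 genes did not pass. Dnmt3b stood at 2.12 to 2.43 CPM and at 1.68 and 1.63 CPM, values that did not overlap, with a log2 fold change of -0.46 (95% interval -0.92 to 0.004, adjusted p = 0.0794). Limma on log2(CPM + 1) called 7 of the 9 genes in this comparison, with Dnmt3b as the added gene, lower (limma adjusted p = 0.00394). Tet3 stood at 114 to 118 CPM and at 111 and 122 CPM, a log2 fold change of -0.01 (95% interval -0.15 to 0.14), and its sign turned to 0.08 when library totals replaced TMM. Ezh1 stood at 14.5 to 19.8 CPM and at 19.7 and 18.6 CPM, a log2 fold change of 0.17 (95% interval -0.16 to 0.50). With library totals in place of TMM the median over all genes shifted from 0.03 to 0.11, and the 6 called genes kept their directions.

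**Figure D1:**
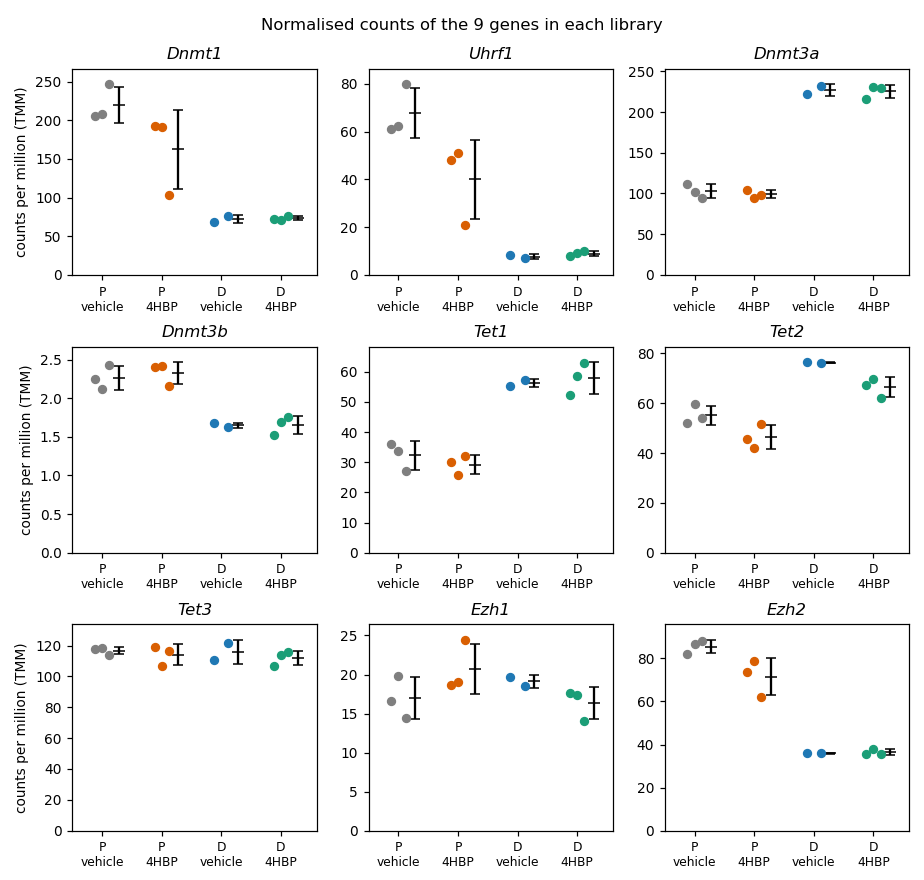
Normalised counts of each gene (CPM, TMM-normalised, linear axes from 0) in the 11 libraries, by medium (P, proliferation; D, differentiation) and treatment; points are libraries and bars are the mean ± SD. Dnmt1, Uhrf1 and Ezh2 are lower and Dnmt3a, Tet1 and Tet2 higher in every library in differentiation medium, and the third 4HBP library in proliferation medium is the lowest of its group for Dnmt1 (104 CPM), Uhrf1 (21.0 CPM) and Ezh2 (62.0 CPM).

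The same comparison among 4HBP-treated cells gave 8 of 9 genes past the threshold, 3 higher and 5 lower, against 67.2% of all genes tested, 33.3% higher and 33.8% lower. The groups of 8 of the 9 genes did not overlap, against 71.5% of all genes. Uhrf1 fell by 2.17 ± 0.27 on the log2 scale (adjusted p = 1.14e-05), Dnmt1 fell by 1.15 ± 0.18 (adjusted p = 8.1e-05) and Ezh2 fell by 0.97 ± 0.08 (adjusted p = 2.71e-07). Dnmt3a rose by 1.19 ± 0.07 (adjusted p = 8.78e-09), Tet1 by 0.99 ± 0.11 (adjusted p = 3.58e-06) and Tet2 by 0.52 ± 0.08 (adjusted p = 8.36e-05). These 6 genes were called in the same direction in vehicle-treated and in 4HBP-treated cells, comparisons that share no library.

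Dnmt3b (-0.49 ± 0.19, adjusted p = 0.0356) and Ezh1 (-0.34 ± 0.14, adjusted p = 0.0408) also passed under 4HBP, close to the threshold. Ezh1 stood at 18.7, 19.1 and 24.5 CPM in the 4HBP libraries in proliferation medium and at 17.7, 17.4 and 14.0 CPM in those in differentiation medium. Without the third 4HBP library in proliferation medium its log2 fold change was -0.21 (adjusted p = 0.159), and without the third 4HBP library in differentiation medium it was -0.24 (adjusted p = 0.168), and without the second it was -0.38 (adjusted p = 0.0533). Dnmt3b lost its call in 5 of the 6 fits that left out 1 library, all but the one without the third 4HBP library in proliferation medium, with adjusted p of 0.0338 to 0.106. Neither call held in all other fits: library totals, a fit of only the 2 groups and the replicate block each called 6 of the 9 genes, without Dnmt3b and Ezh1, and DESeq2, limma, voom and the fit without a filter called 7. Tet3 was again level, with a log2 fold change of -0.03 (95% interval -0.16 to 0.10) that turned to 0.01 with library totals.

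**Figure D2:**
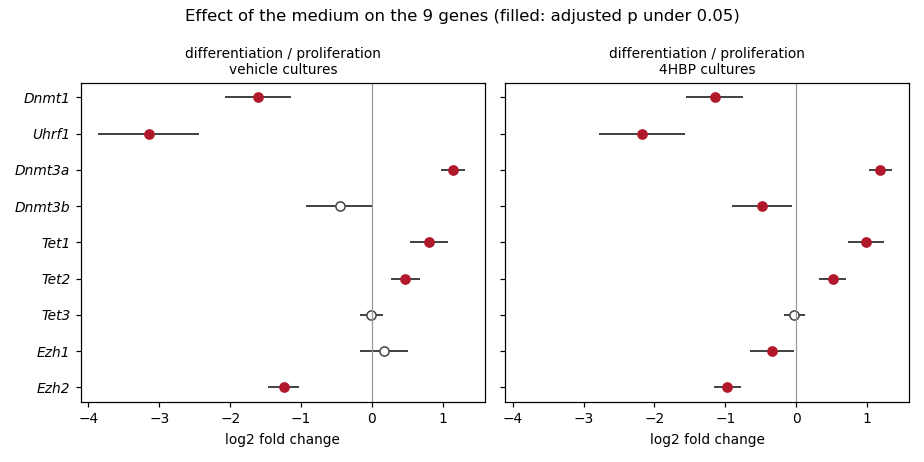
Log2 fold change between differentiation and proliferation medium for the 9 genes (horizontal axis) in vehicle-treated cells (left) and 4HBP-treated cells (right); points are estimates, lines are 95% intervals, and filled points have an adjusted p under 0.05. Uhrf1 lies farthest to the left in both panels, at -3.15 and -2.17, and Dnmt3a farthest to the right, at 1.14 and 1.19.

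The 4HBP treatment in proliferation medium called none of the 9 genes, by edgeR, where 7.43% of the 14449 genes tested passed. At an unadjusted p under 0.05 there were 3 of 9 (25.1% of all genes), and DESeq2 and limma also called 0 of 9. The groups of 4 of the 9 genes, Uhrf1, Dnmt1, Ezh2 and Tet2, did not overlap, against 31.3% of all genes, and each was lower under 4HBP. Over all genes 15.1% were lower without overlap. The median log2 fold change of the 9 was -0.14, beside 0.001 over all genes.

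Uhrf1 was at 48.2, 51.0 and 21.0 CPM under 4HBP and at 61.0, 62.4 and 80.0 CPM in vehicle libraries. Its log2 fold change was -0.76 (95% interval -1.38 to -0.14; adjusted p = 0.125). Without the third 4HBP library it was -0.45 (adjusted p = 0.039), past the threshold. It was also past the threshold when all 11 libraries shared 1 fit (-0.76, adjusted p = 0.0451) and without a filter on low counts (-0.76, adjusted p = 0.0216). Over the fits that left out 1 library the adjusted p was 0.0392 to 0.267.

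Dnmt1 was at 193, 191 and 104 CPM under 4HBP and at 206, 208 and 247 CPM in vehicle libraries, with the third 4HBP library far below the other 5. The log2 fold change was -0.44 (95% interval -0.90 to 0.02; adjusted p = 0.222), and -0.19 (adjusted p = 0.192) without that library. Ezh2 was at 73.6, 78.7 and 62.0 CPM against 81.9, 86.6 and 87.9 CPM, with a log2 fold change of -0.26 (95% interval -0.47 to -0.05; adjusted p = 0.124), and -0.16 (adjusted p = 0.176) without it. In the fit over all 11 libraries Ezh2 passed (adjusted p = 0.0386).

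Tet2 was at 45.6, 42.2 and 51.5 CPM under 4HBP and at 51.9, 59.5 and 53.9 CPM in vehicle libraries. Its log2 fold change was -0.25 (95% interval -0.46 to -0.03; adjusted p = 0.146). Without the third 4HBP library, which for this gene was the highest of its group, it was -0.32 (adjusted p = 0.0474), past the threshold. Ezh1 was at 18.7, 19.1 and 24.5 CPM against 16.6, 19.8 and 14.5 CPM, groups that overlapped, with a log2 fold change of 0.29 (95% interval -0.05 to 0.63; adjusted p = 0.272). The value for Ezh1 was 0.16 (edgeR adjusted p = 0.518) without the third 4HBP library, the highest of its group.

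Dnmt3a (-0.05, 95% interval -0.24 to 0.13), Tet1 (-0.14, -0.43 to 0.14), Tet3 (-0.03, -0.19 to 0.13) and Dnmt3b (0.04, -0.43 to 0.50) had overlapping groups in proliferation medium. The interval for Dnmt3b is wide at its 46 to 50 expected counts per 4HBP library. The signs of Dnmt3a, Dnmt3b and Tet3 turned in some fits that left out 1 library, and that of Tet3 also with library totals.

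A replication reference list of 20 genes, which holds the MCM helicase subunits and other genes of DNA synthesis, had a median log2 fold change of -0.51 in this comparison, with 20 of 20 values negative and 1 gene called, Gins2 (-0.80 ± 0.17, adjusted p = 0.0297). Without the third 4HBP library, an alternative chosen after the values were seen, the median was -0.34, 19 of 20 values were negative, and 4 genes were called lower, Gins2, Rrm1, Rrm2 and Tk1. The summed level of the list was 812, 901 and 542 CPM under 4HBP and 1018, 962 and 1166 CPM in vehicle libraries, lowest in the same library in which Uhrf1, Dnmt1 and Ezh2 were lowest. The astrocyte markers moved as well: 5 of 8 were called lower (median -0.67), with sums of 3734 to 4396 CPM under 4HBP and 5423 to 6693 CPM without, and 7 of 8 (median -0.73) were lower without the third 4HBP library. Their part in the levels of the 9 genes was not tested.

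In differentiation medium 4HBP called 1 of the 9 genes, Tet2, where 2.55% of the 15484 genes tested passed and 1.29% passed as lower. Tet2 was at 67.5, 69.6 and 61.9 CPM under 4HBP and at 76.5 and 76.1 CPM in vehicle libraries, every treated library lying below both controls. The log2 fold change was -0.21 ± 0.05 (adjusted p = 0.0391), 1.16-fold lower. The call was lost with DESeq2 (adjusted p = 0.088), limma (adjusted p = 0.402) and the fit over all 11 libraries (adjusted p = 1). It was also lost in 4 of the 5 fits that left out 1 library, without 4HBP replicate 1 or 3 or either vehicle library, in which the adjusted p was 0.0622 to 0.285.

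Ezh1 also had groups that did not overlap, 17.7, 17.4 and 14.0 CPM against 19.7 and 18.6 CPM, with a log2 fold change of -0.23 (95% interval -0.43 to -0.03; adjusted p = 0.246). With 2 such genes of 9, both lower, the share is below the 32.9% of all genes whose groups did not overlap here, and 17% of all genes did so as lower. The spread in this medium was small, and the intervals of Dnmt1 (-0.09 to 0.12), Dnmt3a (-0.10 to 0.06), Ezh2 (-0.11 to 0.13), Tet1 (-0.10 to 0.16) and Tet3 (-0.16 to 0.04) all held 0. Uhrf1 (0.21, -0.07 to 0.49) and Dnmt3b (-0.003, -0.54 to 0.53) were less precise, at 168 to 212 and 35.3 to 40 expected counts per library. The signs of Dnmt1, Dnmt3a, Dnmt3b, Ezh2, Tet1 and Tet3 turned in some of the other fits.

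**Figure D3:**
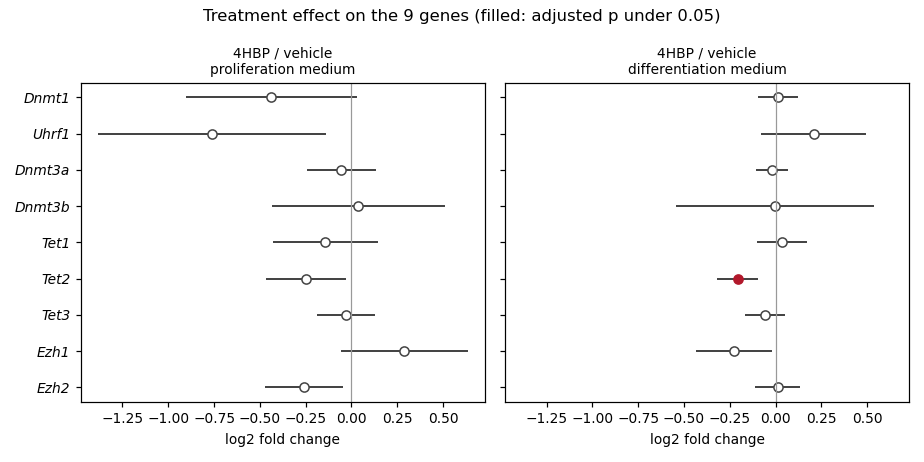
Log2 fold change between 4HBP-treated and vehicle-treated cells for the 9 genes (horizontal axis) in proliferation medium (left) and differentiation medium (right); points are estimates, lines are 95% intervals, and the filled point has an adjusted p under 0.05. The single filled point is Tet2 in differentiation medium at -0.21, while Uhrf1 in proliferation medium lies farther from 0, at -0.76, with a wider interval.

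Whether the effect of 4HBP differed between the media was tested as an interaction, in which 4.49% of 15920 genes passed. None of the 9 genes passed by edgeR, and DESeq2 and limma also called 0. At an unadjusted p under 0.05 there were 3 of 9, Uhrf1, Ezh1 and Ezh2 (19.9% of all genes). The effect on Uhrf1 was lower in proliferation medium than in differentiation medium by -0.98 on the log2 scale (95% interval -1.87 to -0.08; adjusted p = 0.212). That on Ezh1 was higher by 0.51 (0.07 to 0.95; adjusted p = 0.182), and that on Ezh2 lower by -0.28 (-0.54 to -0.02; adjusted p = 0.224). For Dnmt1 the difference was -0.46 (-1.03 to 0.12; adjusted p = 0.368). Without the third 4HBP library in proliferation medium the differences were -0.66 for Uhrf1 (adjusted p = 0.0569), 0.38 for Ezh1 (adjusted p = 0.236), -0.18 for Ezh2 (adjusted p = 0.244) and -0.21 for Dnmt1 (adjusted p = 0.284). The intervals of Tet1 (-0.53 to 0.16), Tet2 (-0.31 to 0.21), Tet3 (-0.18 to 0.22), Dnmt3a (-0.26 to 0.17) and Dnmt3b (-0.58 to 0.65) held 0. Without a filter on low counts 3 genes passed: Uhrf1 (adjusted p = 1.74e-08), Dnmt1 (-0.45, adjusted p = 0.00232) and Ezh1 (0.51, adjusted p = 0.0363). No other fit of the interaction called any of the 9. The estimates for Dnmt1 and Ezh1 were near those of the main fit while the p-values were far smaller, and the cause was not tested.

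Ratios between paralogues and partners show how the balance within each family stood in a library. They were computed from TPM and compared between the media with a two-sided exact permutation test over 200 relabelings of the medium within each treatment, adjusted over the 8 ratios, and the smallest p it can give is 0.005. Of the 8 ratios, 5 passed. Uhrf1 relative to Dnmt1 was 0.403 to 0.425 in vehicle libraries with growth factors and 0.224 and 0.234 in those without, and 0.333 to 0.385 and 0.196 to 0.210 under 4HBP. The log2 ratio was lower in differentiation medium by -0.84 (exact permutation p = 0.005, adjusted p = 0.02), so Uhrf1 fell by more than its partner.

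Uhrf1 was also set against the mean log2 TPM of the 6 MCM subunits. Its log2 ratio to this mean was -0.48 ± 0.10 (SD, n = 3) and -1.07 ± 0.05 (n = 2) in vehicle libraries of the 2 media, and -0.86 ± 0.33 (n = 3) and -1.44 ± 0.09 (n = 3) under 4HBP. The difference between the media was -0.59 (exact permutation p = 0.005, adjusted p = 0.02). The same ratio for Dnmt1 (0.25, exact permutation p = 0.055, adjusted p = 0.0733) and for Ezh2 (0.24, exact permutation p = 0.105, adjusted p = 0.12) did not pass with TPM, and did pass when TMM-normalised CPM replaced TPM (0.35 and 0.59, each with exact permutation adjusted p = 0.00667). With either measure both differences were above 0, that is, the mean ratios to the MCM subunits were higher in differentiation medium. With TPM the media did not overlap in vehicle libraries but overlapped under 4HBP, for both genes.

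The Ezh2 to Ezh1 log2 ratio was 3.46 ± 0.52 (SD, n = 3) and 2.08 ± 0.11 (n = 2) in vehicle libraries of proliferation and differentiation medium, and 2.99 ± 0.59 and 2.34 ± 0.16 (n = 3 each) under 4HBP. It was lower in differentiation medium by -1.02 (exact permutation p = 0.015, adjusted p = 0.024). Ezh2 remained above Ezh1 in all 11 libraries. The Dnmt3a to Dnmt3b log2 ratio rose by 0.83 (exact permutation p = 0.015, adjusted p = 0.024), though in vehicle libraries its ranges in the 2 media overlapped. With CPM this difference was 1.64 and that of Uhrf1 to the MCM mean -0.91, each over 1.5 times the value with TPM (exact permutation adjusted p = 0.00667 for both), and that of Uhrf1 to Dnmt1 was -1.26. The Tet3 to Tet1 log2 ratio fell by 1.02 (exact permutation p = 0.01, adjusted p = 0.024), and that of Tet2 to Tet1 differed by -0.21 (exact permutation p = 0.26, adjusted p = 0.26). The Tet2 to Tet1 ratio also passed with CPM (-0.40, exact permutation adjusted p = 0.01), which made 8 of 8.

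The ratio test depends on single libraries, since fewer libraries leave fewer relabelings. Without vehicle replicate 1 in differentiation medium none of the 8 ratios passed (exact permutation adjusted p of 0.05 to 0.06 for the 5 named), and their log2 differences were then -0.83 for Uhrf1 to Dnmt1, -0.61 for Uhrf1 to the MCM mean, -0.98 for Ezh2 to Ezh1, 0.75 for Dnmt3a to Dnmt3b and -1.02 for Tet3 to Tet1. Ezh2 to Ezh1 also missed the threshold without any 1 vehicle library in proliferation medium or without 4HBP replicate 1 or 2 in differentiation medium (exact permutation adjusted p = 0.0533 to 0.064). Dnmt3a to Dnmt3b missed it without vehicle replicate 2 or 3 in proliferation medium (0.0533). Dnmt1 to the MCM mean passed without 4HBP replicate 1 in proliferation medium (0.34, exact permutation adjusted p = 0.02).

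Between treatments the ratios are given as values only. In proliferation medium the log2 ratio of Uhrf1 to Dnmt1 was lower under 4HBP by -0.23 and that of Uhrf1 to the MCM mean by -0.38, and the groups did not overlap in either case, while those of the other 6 ratios did. Without the third 4HBP library, which was the lowest for both, these differences were -0.19 and -0.20. With or without it, the Uhrf1 to MCM groups were apart only by -0.552 under 4HBP against -0.545 in a vehicle library. The Dnmt3a to Dnmt3b (-0.54) and Tet3 to Tet1 (0.51) groups also lay apart without that library. The difference for Ezh2 to Ezh1 went from -0.47 to -0.13 without it, and that for Dnmt1 to the MCM mean from -0.15 to -0.015. Both kept overlapping groups. In differentiation medium the differences of the Uhrf1 ratios were -0.19 and -0.36, again with no overlap, and the groups also lay apart for Dnmt3a to Dnmt3b (0.51), Ezh2 to Ezh1 (0.26) and Dnmt1 to the MCM mean (-0.17). There the TPM and CPM of Uhrf1 went opposite ways, with 5.02 ± 0.298 TPM (n = 3) under 4HBP against 5.87 ± 0.410 TPM (n = 2) in vehicle libraries, but 8.88 ± 1.12 CPM against 7.65 ± 0.906 CPM. The transcript length by which TPM divides was 2848 to 3422 bases in the 4HBP libraries and 2155 and 2776 bases in the vehicle libraries. Dnmt3b did the same between the media in vehicle-treated cells, where its TPM was 0.787 ± 0.055 (n = 3) in proliferation medium and 1.21 ± 0.219 (n = 2) in differentiation medium, but its CPM 2.27 ± 0.155 and 1.65 ± 0.0345, with a mean weighted length of 3903 and 2618 bases.

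**Figure D4:**
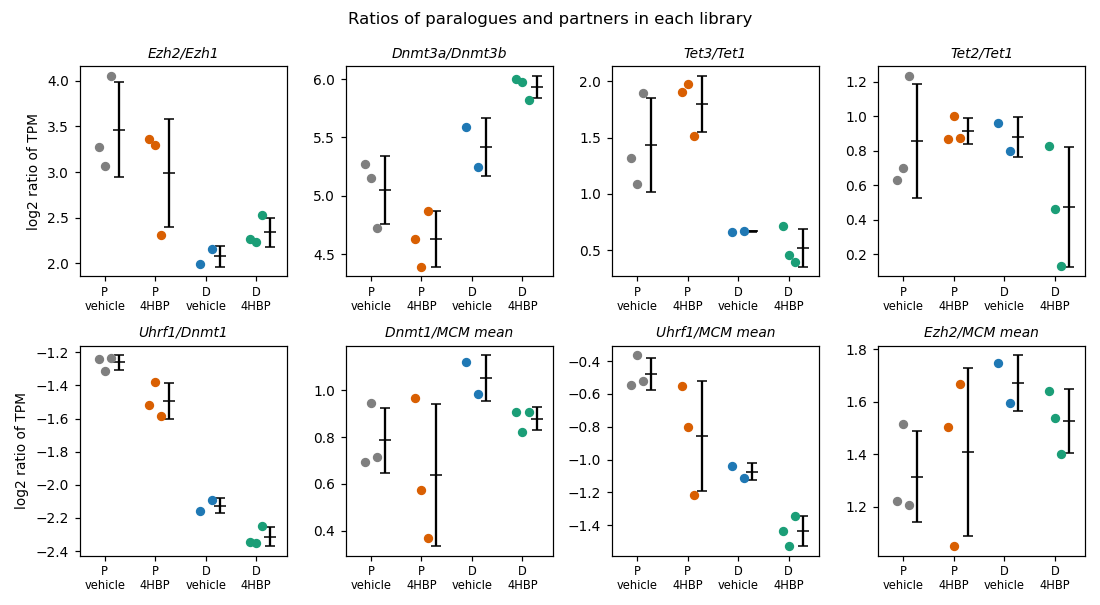
Log2 ratio of TPM (vertical axes, each with its own range) for 5 pairs among the 9 genes and for Dnmt1, Uhrf1 and Ezh2 against the mean log2 TPM of 6 MCM subunits, in the 11 libraries by medium and treatment; points are libraries and bars are the mean ± SD. Uhrf1 to Dnmt1 separates the media in every library, with a difference of -0.84, while Tet2 to Tet1 (-0.21) does not.

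The length estimates themselves differed between the media. RSEM, the program the authors used, gives each gene the mean length of its transcripts weighted by their estimated abundance, which moves when reads are assigned to other isoforms. The exact permutation test was run on 11726 genes, of which 25.3% passed after adjustment over all of them, 17.5% longer and 7.77% shorter in differentiation medium. Of the 9 genes, 4 passed, and these were longer: Dnmt3a, Tet3, Ezh1 and Ezh2, each with the smallest possible exact permutation p of 0.005 (adjusted p = 0.0247). The number of libraries sets this limit, and leaving out any 1 vehicle library left none of the 4 with an adjusted p under 0.05, the adjusted p of these 4 then lying at 0.0534 to 0.0627, and the difference for Dnmt3a at 2552 to 2685 bases. Ezh1 also lost its call without any 1 of the 4HBP libraries in differentiation medium (exact permutation adjusted p = 0.0703 to 0.0718).

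Dnmt3a had a weighted length of 5062 to 5720 bases in the 6 libraries in proliferation medium and of 7499 to 8291 bases in the 5 in differentiation medium, a difference of 2608 bases. Its annotated transcripts range from 369 to 9685 bases, and the gene is known to produce a long and a short protein form from separate promoters. Tet3 went from 7550 to 8095 bases to 9870 to 10071 bases, near its longest transcript of 10904 bases. Ezh1 went from 2372 to 3425 bases to 3666 to 4008 bases, and Ezh2 from 1258 to 1556 bases to 1623 to 1869 bases, well below the 2787 bases of its longest transcript. For all 4 genes the ranges of the media did not overlap.

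Dnmt1 was longer by 565 bases (exact permutation p = 0.025, adjusted p = 0.0759), with 4HBP replicate 3 in proliferation medium at 5308 bases, above the other 5 libraries in that medium at 4242 to 4763 bases. Without that library the difference was 696 bases (exact permutation adjusted p = 0.0432). Uhrf1 (-446 bases, exact permutation adjusted p = 0.127), Dnmt3b (-425 bases, 0.45), Tet1 (1053 bases, 0.206) and Tet2 (138 bases, 0.683) did not pass. Because CPM does not divide by length, the rise of Dnmt3a was 2.21-fold in CPM, while its mean TPM was 26.2 and 51.0 in the same vehicle groups.

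**Figure D5:**
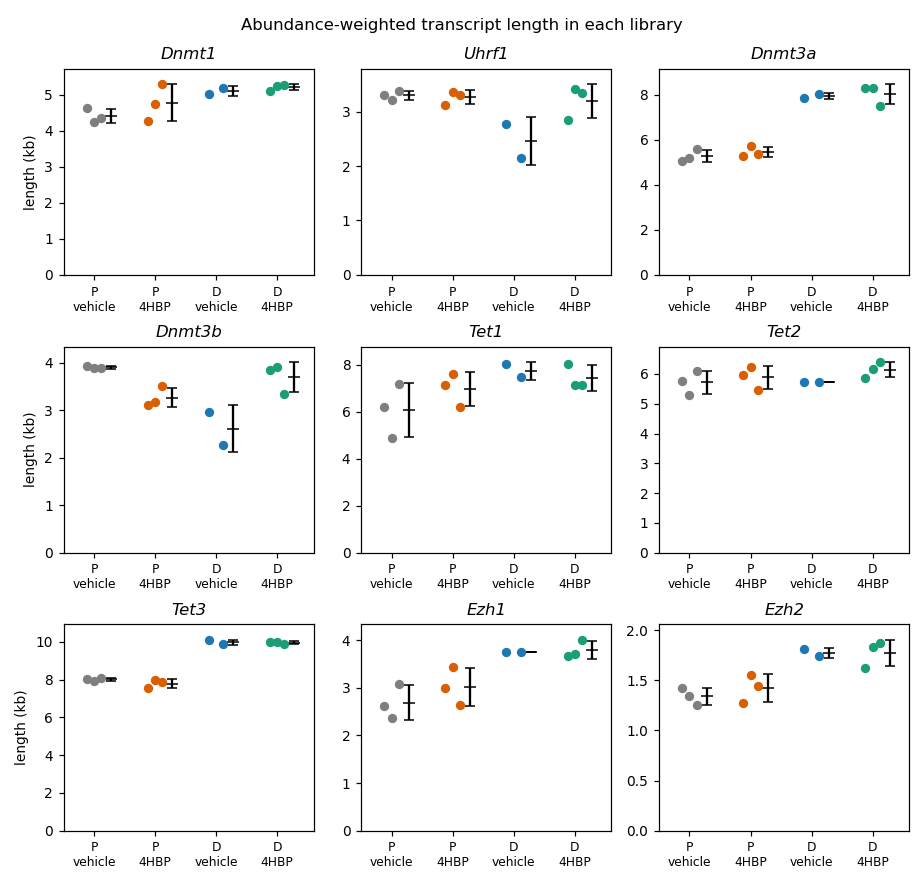
Abundance-weighted transcript length (kb, linear axes from 0) of the 9 genes in the 11 libraries by medium and treatment; points are libraries and bars are the mean ± SD. Dnmt3a, Tet3, Ezh1 and Ezh2 are longer in every library in differentiation medium, by 2608, 2062, 921 and 391 bases.

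Genes related to the work of the 9 were followed as fixed lists and are called partners here. Outside the replication list, 53 of 82 tested partners passed between the media in vehicle-treated cells, or 64.6%, close to the 61.4% of all genes given above (30.8% higher, 30.6% lower), against which the counts of each list are to be read. Among the other 12 PRC2 core and accessory subunits, 3 were called higher and 6 lower in differentiation medium in vehicle-treated cells, with a median log2 fold change of -0.32. Eed, a core subunit that binds trimethylated lysine 27, fell with Ezh2 (-1.12 ± 0.10, adjusted p = 9.39e-07), as did the accessory subunits Mtf2 (-0.76 ± 0.10, adjusted p = 2.65e-05) and Phf19 (-0.71 ± 0.14, adjusted p = 0.000793). Epop (1.18 ± 0.28, adjusted p = 0.00282), Lcorl (0.72 ± 0.09, adjusted p = 1.91e-05) and Jarid2 (0.58 ± 0.09, adjusted p = 8.08e-05) rose. Under 4HBP 4 were higher and 8 lower, where 33.3% of all genes were higher and 33.8% lower. Without the third 4HBP library in proliferation medium 4 were higher and 7 lower. Of the demethylases of the same mark, Kdm6a was lower (-0.47 ± 0.08, adjusted p = 0.000158) and Kdm6b slightly higher (0.17 ± 0.07, adjusted p = 0.0396) in vehicle-treated cells.

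Among 18 PRC1 subunits, 3 were higher and 3 lower in vehicle-treated cells (median 0.11), a smaller share than the 61.4% of all genes. Of the 18 values 10 were positive and 8 negative. Rnf2, an E3 ligase of PRC1, fell by 0.95 ± 0.08 on the log2 scale (adjusted p = 2.74e-07) and Bmi1 fell by 0.44 ± 0.06 (adjusted p = 5.71e-05). Ring1, the paralogue of Rnf2, went the other way, from 17.1 to 18.0 CPM to 21.6 and 21.3 CPM. Of 12 partners of the DNA methyltransferases, 10 were tested, none was higher and 6 were lower (median -0.30), where 30.6% of all genes were lower. Hells, a remodeller needed for DNA methylation, fell by 3.77 ± 0.25 (adjusted p = 6.21e-08) and Lig1, the replicative ligase, by 2.43 ± 0.29 (adjusted p = 1e-05). Of 8 methyl-CpG binding proteins none was higher and 4 were lower (median -0.28), led by Mbd2 (-0.56 ± 0.07, adjusted p = 1.19e-05) and Mbd3 (-0.53 ± 0.08, adjusted p = 8.56e-05).

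Of 14 TET partners and base excision genes, 4 were higher and 5 lower in vehicle-treated cells (median -0.13), among them Xrcc1 (-0.84 ± 0.09, adjusted p = 2.7e-06). In the list for the cycle that makes S-adenosylmethionine, the methyl donor of both enzyme families, 4 of 7 genes were higher and 2 lower. A place in this list does not show that a gene acts in the cycle. Mat2a, which makes the donor, rose by 0.97 ± 0.12 (adjusted p = 1.83e-05) and Ahcy, which clears its product, fell by 1.18 ± 0.11 (adjusted p = 1.45e-06). All 20 replication reference genes were lower (median -2.0), as were 10 of 11 E2F and Rb family genes (median -0.56), with Rbl2 higher (0.39 ± 0.12, adjusted p = 0.013). Under 4HBP the medians of these last 2 lists were -1.39 and -0.88.

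Under 4HBP in proliferation medium 7 of 81 tested partners outside the replication list were called, or 8.64%, against 7.43% of all genes. Each of the 7 also passed without the third 4HBP library, a fit that called 1429 genes in all, against 1074 with it. The fits without vehicle replicate 1 or 2 called 107 and 137 genes, and the 7 were not tested for their calls in these. Aebp2, a PRC2 accessory subunit, was higher (0.41 ± 0.10, adjusted p = 0.0399). Idh1 (-0.52 ± 0.10, adjusted p = 0.0183) and Idh2 (-0.39 ± 0.09, adjusted p = 0.0321), which make the 2-oxoglutarate that TET enzymes consume, were lower, and the base excision gene Apex1 was higher (0.36 ± 0.08, adjusted p = 0.0345). E2f8, an E2F repressor, was lower (-0.81 ± 0.18, adjusted p = 0.0297), E2f5 higher (0.32 ± 0.07, adjusted p = 0.033), and Ahcyl2 higher (0.31 ± 0.08, adjusted p = 0.0452). No gene of the methyltransferase partners or of the methyl-CpG binding proteins was called, and Lig1 was called lower without the third 4HBP library (-0.43 ± 0.08, adjusted p = 0.0135). In differentiation medium 1 of 82 tested partners outside the replication list was called, or 1.22%, against 2.55% of all genes. This was Ogt, a glycosyltransferase that binds TET proteins, which was lower (-0.26 ± 0.05, adjusted p = 0.0141). Rrm2 of the replication list was higher there (0.40 ± 0.10, adjusted p = 0.0389). Limma and the fit over all 11 libraries called 0 genes in this comparison, so both calls were lost with them.

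Over the 11 libraries the genes whose normalised counts followed each of the 9 most closely, among 15920 genes, were Clspn for Dnmt1 (Pearson's r = 0.998), Prim1 for Uhrf1 (0.996), Spag5 for Ezh2 (0.998), Rap2a for Dnmt3a (0.999), Ctnna2 for Tet1 (0.998), Srpk1 for Dnmt3b (0.989) and 2900052N01Rik for Tet2 (0.981). Tet3 and Ezh1, the genes with the least difference between the media, had weaker neighbours, Zfp711 (0.866) and 1700029J07Rik (0.918). These correlations are descriptions, since the libraries fall into separate groups by medium and share their depth. Some of the 9 genes overlap others in the annotation, on the opposite strand Dnmt3a with Dnmt3aos, Dnmt3b with Dnmt3bos, Tet2 with Gm42567, Tet3 with B230319C09Rik and Ezh2 with Gm26625 and Gm44282, and on the same strand Dnmt1, Tet1 and Tet3 with small RNAs or unconfirmed transcripts. The strand setting of the counting is not given in the sources used here, so reads of the opposite-strand pairs may not have been told apart.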

How the data were processed

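Poly(A) RNA of 11 cultures was sequenced as paired reads, and the authors trimmed the reads with cutadapt and quantified them with RSEM 1.3.0 and Bowtie2 2.2.9 (FastQC 0.11.5 for quality) against mm10 (GRCm38) with GENCODE vM17 genes. The deposited expected counts are RSEM estimates per gene without normalization, the deposited TPM and FPKM values are scaled by RSEM for transcript length and depth, and the deposited length is RSEM's abundance-weighted transcript length. Library totals ranged from 20822921 to 23438463 expected counts, which sets the counting precision.

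Gene identifiers were matched to GENCODE vM21 symbols of the same build (99.8% matched). Expected counts were rounded and tested with edgeR 4.0.16 (R 4.3.3; filterByExpr, TMM, quasi-likelihood, Benjamini-Hochberg adjusted p under 0.05 over all genes tested). The 4HBP comparisons were fitted within each medium, whose spreads differ, and the comparisons of media and the interaction in 1 fit of 11 libraries. Ratios of TPM and weighted lengths were compared with an exact permutation test of the medium within treatment (scripts in Python 3.11.15, tested on simulated data). Lengths were tested on genes with a mean expected count of 10 or more that were above 0 in every library, and adjusted over all of them; a plan to adjust over the 9 genes alone was dropped. Alternatives were library totals, DESeq2 1.42.0, no low-count filter, limma 3.58.1 on log2(CPM + 1), which is close to the authors' own test, voom weights, other sets of libraries, CPM or FPKM in place of TPM, a fit with the replicate number as a block, and fits without 1 library each. FPKM was used only to check the order of levels.

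The members and gene lists were chosen with earlier results of these data known, and 1 gene of the lists is not reported here. All 9 genes are named in every comparison, at most 3 higher and 3 lower genes of each list, and the closest neighbour of each gene by correlation. Promoter sequences are from RefSeq (GRCm38.p6).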

Additional observations from a re-analysis of the deposited data

Results flagged for a closer look

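None of the 9 genes was flagged, since none passed the test of a difference in the 4HBP effect between the media and no group held enough libraries (4 or more) for a test of outlying samples. Among the genes of the fixed lists, 10 passed that interaction test (edgeR, adjusted p under 0.05). The values are the log2 effect in proliferation medium minus that in differentiation medium. Of these, 4 belong to the 82 tested partners outside the replication list, or 4.88% of them, near the 4.49% of all genes. The PRC2 accessory subunit Aebp2 differed by 0.51 ± 0.12 (SE; adjusted p = 0.0375) and the TET cofactor enzyme Idh1 by -0.70 ± 0.13 (adjusted p = 0.0105). Ahcyl2, from the list for the S-adenosylmethionine cycle, differed by 0.42 ± 0.09 (adjusted p = 0.0249) and E2f8 by -1.12 ± 0.25 (adjusted p = 0.0269). Of the 20 replication reference genes only Rfc4 passed, with a difference of -0.91 ± 0.22 (adjusted p = 0.0388). The other 5 are cell type markers, 4 of the 8 astrocyte markers and 1 of the 8 NSC markers. The astrocyte markers were Agt (-1.42 ± 0.21, adjusted p = 0.00378), Aqp4 (-0.74 ± 0.14, adjusted p = 0.0138), Gja1 (-0.82 ± 0.17, adjusted p = 0.0187) and Gfap (-0.68 ± 0.14, adjusted p = 0.0192), and the NSC marker was Fabp7 (-0.59 ± 0.13, adjusted p = 0.0204). The background is 4.49% of all genes tested. All 10 also passed without the third 4HBP library in proliferation medium, an alternative chosen after the values were seen. That fit called 1094 genes in all, against 715 with the library.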

How the results depend on the processing

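Of the 9 genes, the number called for 4HBP in proliferation medium was 0, but 1 without a filter on low counts and 2 in the fit over 11 libraries, and 0 to 2 when 1 library was left out. In differentiation medium it was 1, but 0 with DESeq2, both limma settings and the fit over 11 libraries, and 0 to 1 with 1 library left out. The interaction called 0, but 3 without the filter, and 0 in every run with 1 library left out. Between the media the counts were 6 to 7 in vehicle-treated and 6 to 8 in 4HBP-treated cells under all settings. Ratios past the threshold numbered 5, but 8 with CPM and 0 to 6 with 1 library left out, and lengths 4, with 0 to 5. The order of levels was the same with FPKM in 4 of 4 groups. The causes of these changes were not tested, except that fewer libraries leave fewer relabelings.

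Signs turned for genes that were not called. For Tet3 the log2 fold change became 0.0032 with library totals and 0.0015 with limma (4HBP, proliferation medium), 0.080 and 0.078 with library totals and limma, 0.00067 with only the 2 groups and 7.99e-05 with the replicate block (media, vehicle), and 0.014 and 0.015 with library totals and limma (media, 4HBP). For the interaction, Dnmt3a became 0.00079 and 0.0043 and Tet2 0.0032 and 0.0016 with library totals and limma. In differentiation medium Dnmt3b became 0.00068 without a filter and 0.0048 in the fit over 11 libraries. With 1 library left out, the ranges that crossed 0 in proliferation medium were -0.11 to 0.012 for Dnmt3a, -0.0068 to 0.093 for Dnmt3b and -0.063 to 0.018 for Tet3. In differentiation medium they were -0.054 to 0.084 for Dnmt1, -0.048 to 0.016 for Dnmt3a, -0.041 to 0.053 for Dnmt3b, -0.025 to 0.030 for Ezh2, -0.12 to 0.013 for Tet3 and -0.025 to 0.10 for Tet1. For the interaction they were -0.10 to 0.023 (Dnmt3a), -0.025 to 0.090 (Dnmt3b), -0.050 to 0.082 (Tet3) and -0.12 to 0.014 (Tet2). Between the media Tet3 ranged from -0.069 to 0.064 (vehicle) and from -0.058 to 0.0082 (4HBP).

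Same-numbered replicates did not deviate together (correlations -0.061 to 0.018), so no pairing by number was seen. Deviations within groups this small cannot exclude a pairing. With the number as a replicate block, 0, 1, 0, 6 and 6 of the 9 genes were called for 4HBP in proliferation medium, in differentiation medium, the interaction, and the media in vehicle-treated and in 4HBP-treated cells, and in differentiation medium Dnmt1 became -0.015 and Tet1 -0.025. The block gave 534 and 745 genes called for 4HBP in the 2 media over all genes.

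Counts over all genes called for 4HBP moved more. In proliferation medium 1074 became 1633 with DESeq2, 18 with limma (7 higher, 11 lower), 651 with limma's unadjusted p and fold threshold, 2668 in the fit over 11 libraries and 107 to 1429 with 1 library left out. In differentiation medium 395 became 778 without the filter, 0 with limma, 66 with its unadjusted p, 0 in the fit over 11 libraries and 77 to 288 with 1 library left out. The interaction's 715 became 1086 with DESeq2, 1616 without the filter, 264 with limma and 124 to 1100 with 1 library left out. Depth limits Dnmt3b most, at 35.3 to 50 expected counts per library.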
